A study of Mus musculus with 6 samples.

Results

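The fragments of alanine and cysteine tRNAs were followed in small RNA libraries of mouse eyes with and without laser-induced choroidal neovascularization (CNV), the growth of new choroidal vessels towards the retina. They were taken by name, as every listed small RNA whose name starts with tRF-Ala- or tRF-Cys-, where tRF stands for tRNA fragment. This gave 39 members of 2334 listed small RNAs, and of 498 listed tRNA-derived small RNAs (tsRNAs). There were 29 alanine fragments, of which 15 were named for the anticodon AGC, 12 for CGC and 2 for TGC, and 10 cysteine fragments, all named for GCA. The tissue was a complex made up of the retinal pigment epithelium (RPE), the choroid and the sclera, from male mice aged 7 to 8 weeks, whose strain is not given in the labels. The CNV group had 25 laser burns per eye (532 nm, 100 mW, 0.1 s, 50 µm) and was sampled 7 days later, and the control group was of the same age and had no laser. Each group had 3 libraries, each from RNA of 4 pooled eyes. Whether separate pools stand for separate mice is not stated in the labels, so p-values reflect the spread among pools, some of it possibly technical.

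Transfer RNAs carry amino acids to the ribosome, and under stress the ribonuclease angiogenin, which was first known as a factor for vessel growth, cuts them in the anticodon loop. Alanine and cysteine tRNAs are known for 5′ fragments that start with a run of guanines. Such fragments can fold into G-quadruplexes, displace the cap-binding initiation complex from mRNAs and repress translation. A name in these data holds the amino acid, then the anticodon, then a serial number. It does not say which end of the tRNA a fragment comes from, so the members with a guanine run could not be told from those without, and no sequence was matched to a name. The RefSeq annotation of GRCm38.p6 names 57 tRNA genes for cysteine with anticodon GCA, 13 for alanine with AGC, 9 with CGC and 11 with TGC, between 70 and 73 bases long. The fragments listed per anticodon (10, 15, 12 and 2) did not follow the order of these gene numbers.

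The libraries held 5057142 to 12839386 counts, with control replicate 2 the deepest. The members took 3019 to 7980 counts per library, from 0.621% of the tsRNA counts in CNV replicate 2 to 1.30% in control replicate 2. Levels are given in CPM, counts per 1000000 of the library total after scaling by the trimmed mean of M-values (TMM), so that 1 count was worth 0.0719 CPM in control replicate 2 and 0.172 to 0.204 CPM in the others. A level is thus relative to the scaled total of a library's small RNAs and not an absolute amount. A fragment made in fewer cells cannot be told apart from one made at less RNA per cell. The RPE miRNAs miR-204-5p and miR-211-5p were detected in every library, at a summed 4522 to 6985 CPM. The photoreceptor miRNAs miR-183-5p, miR-96-5p and miR-182-5p were detected in every library as well, at a summed 24736 to 75779 CPM, so the libraries also held small RNAs typical of the neural retina. The pool of CNV replicate 3 lay nearer to the control pools than the other CNV pools did in several measures below, though not in the summed RPE miRNAs.

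In CNV most alanine fragments were slightly higher and most cysteine fragments slightly lower than in control, and none of the differences passed the test. Of the 39 members 35 had enough reads to be tested, 26 of alanine and 9 of cysteine. None of these had an adjusted p under 0.05 by the quasi-likelihood test of edgeR, with Benjamini-Hochberg adjustment over all 997 tested small RNAs, against 3 called small RNAs (0.301%) and 0% of the 456 tested tsRNAs. DESeq2 and limma-voom called no member either. At an unadjusted p under 0.05 there were 3 members, 2 alanine fragments higher (of 26, against 13.6% of tsRNAs) and 1 cysteine fragment lower (of 9, against 4.39% of tsRNAs).

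By sign, 22 of the 26 tested alanine fragments had a positive log2 fold change, where 56.4% of the tested tsRNAs did. All 9 tested cysteine fragments had a negative one, where 43.6% of the tested tsRNAs did. The median log2 fold change was 0.24 for alanine and -0.30 for cysteine, beside 0.08 for all tested tsRNAs and 0.05 for all tested small RNAs. Under scaling by total counts alone the median of all small RNAs moved to -0.11 and 16 of the 26 alanine fragments were positive, against 44.1% of tsRNAs. The 9 cysteine fragments were all negative with that scaling too, against 55.9% of tsRNAs. These counts rested in part on single pools. Without control replicate 2, 17 of 29 alanine fragments were positive and 7 of 10 cysteine fragments negative, and without CNV replicate 1 it was 19 of 27 and 7 of 9. Among the 20 amino acids with at least 5 tested tRF fragments, cysteine had the lowest median and alanine the highest. Both places were the same when only total counts were used for scaling. Histidine (median 0.21), threonine (0.20), asparagine (0.19) and glycine (0.18) lay close below alanine, and lysine (-0.23) was next to cysteine. Of the other abundant groups, tRF-Gly-CCC had 23 of 29 fragments positive (median 0.27, above that of alanine), tRF-Gly-GCC had 12 of 17 positive (median 0.35), tRF-Glu 18 of 32 (median 0.06) and tRF-Val 14 of 29 (median -0.01). The order of amino acids was a description with no test, and it depended on single pools. Without control replicate 2 the alanine median was 0.03, the 7th from the highest, and without CNV replicate 2 the cysteine median was -0.16, the 5th from the lowest. Without CNV replicate 3 the alanine median was the 4th from the highest.

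**Figure D1:**
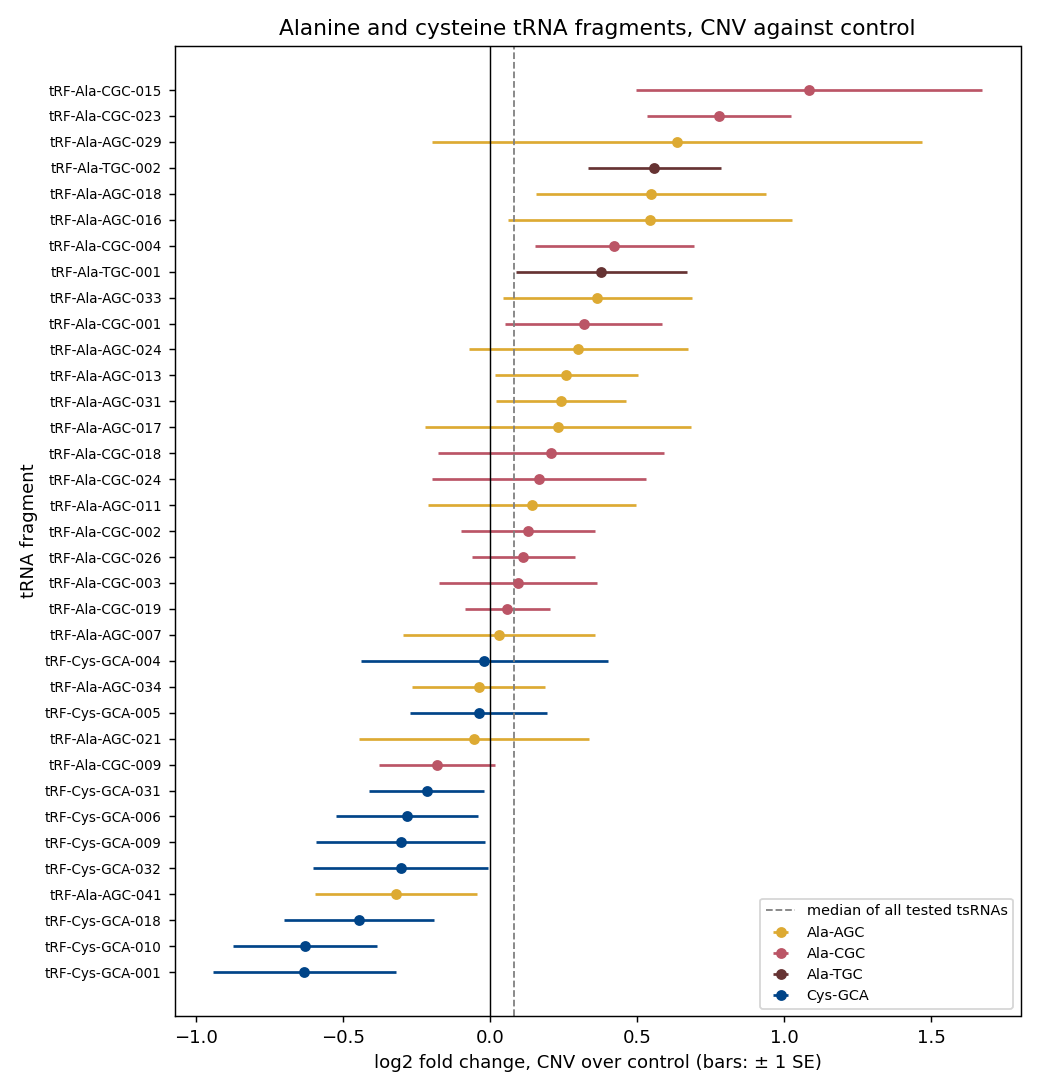
Log2 fold change of CNV over control (x axis) for each of the 35 tested fragments (y axis), with bars of 1 standard error and points coloured by anticodon. The 9 cysteine points all lie below 0 and 22 of the 26 alanine points above it and the dashed line marks the median of all tested tsRNAs at 0.08.

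Summed over members, alanine fragments were at 448, 388 and 462 CPM in control replicates 1 to 3 and at 591, 574 and 472 CPM in CNV replicates 1 to 3. The means were 432 ± 39.4 and 546 ± 64.4 CPM (SD, n = 3), a 1.26-fold ratio. The CNV pools all lay above the control pools, but CNV replicate 3 (472) and control replicate 3 (462) were close. When libraries were scaled by total counts alone the groups overlapped, since control replicate 1 was at 497 and CNV replicate 3 at 485. For comparison, the ratio of mean TMM-scaled sums was 1.35-fold for tRF-Glu, 1.42-fold for tRF-Gly-GCC and 1.225-fold for tRF-Val. For all tRF fragments of other amino acids together it was 1.82-fold. Most of that sum was tRF-Gly-CCC, for which it was 2.06-fold, and the median log2 fold change of these other fragments was 0.06. Summed cysteine fragments were at 143, 186 and 155 CPM in control replicates 1 to 3 and at 132, 123 and 177 CPM in the CNV replicates, with means of 161 ± 22.3 and 144 ± 28.8 CPM (SD, n = 3). These groups overlapped, as CNV replicate 3 lay above both control replicates 1 and 3.

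The ratio of alanine to cysteine counts compares the amino acids inside a library and needs no scaling between libraries. It was 3.13, 2.08 and 2.99 in control replicates 1 to 3 and 4.49, 4.67 and 2.67 in CNV replicates 1 to 3. The means were 2.74 ± 0.569 and 3.95 ± 1.11 (SD, n = 3). CNV replicates 1 and 2 had the highest ratios of the 6 pools and control replicate 2 the lowest, but the groups overlapped because CNV replicate 3 lay inside the control range. On the log2 scale the difference of group means was 0.51, and it was 0.77 without CNV replicate 3 and 0.32 without control replicate 2. Without tRF-Ala-CGC-023 it was 0.29, and without the most abundant member of each amino acid 0.35. Written as a share, cysteine made up 18.2% of the alanine and cysteine counts in CNV replicate 1 (95% Wilson interval 17.0 to 19.5%) and 17.6% in CNV replicate 2 (16.4 to 18.9%). In CNV replicate 3 it was 27.2% (25.8 to 28.7%), and in the control pools it was 24.2% (22.8 to 25.7%), 32.4% (31.4 to 33.5%) and 25.1% (23.6 to 26.7%). These intervals cover counting error only, and the pools of 1 group differed by more than that.

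Within the tsRNAs, both amino acids took a smaller share in CNV, which the CPM of alanine does not show. Alanine made up 0.767%, 0.878% and 0.877% of the tsRNA counts in control and 0.592%, 0.512% and 0.750% in CNV, and the groups did not overlap. For cysteine the shares were 0.245%, 0.422% and 0.293% in control and 0.132%, 0.110% and 0.281% in CNV, where CNV replicate 3 lay above control replicate 1. Over the same pools all tsRNAs summed to 51736 ± 7182 CPM in control and to 91649 ± 25631 CPM in CNV (SD, n = 3). Gly-CCC fragments, from the glycine tRNA of that anticodon, alone accounted for 33644 ± 6254 and 69266 ± 21871 CPM of it. Against the tsRNA counts without these glycine fragments, the log2 ratio of CNV to control was 0.04 for alanine and -0.42 for cysteine. The direction given for alanine thus depended on the denominator, and that for cysteine did not under the denominators tried.

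Among the alanine fragments, those named for CGC made up most of the reads, from 78.9% of alanine counts in CNV replicate 3 (95% Wilson interval 77.3 to 80.4%) to 84.5% in CNV replicate 1 (83.1 to 85.7%). They summed to 345 ± 30.0 CPM in control and to 450 ± 67.7 CPM in CNV. The 15 fragments named for AGC, an anticodon whose first base is modified to inosine in the mature tRNA, were at 75.0 ± 11.7 and 79.3 ± 7.54 CPM, with groups that overlapped. The 2 fragments named for TGC were at 12.1 ± 1.63 and 16.9 ± 3.60 CPM. For CGC and TGC the CNV pools lay above the control pools under TMM and overlapped them under scaling by total counts alone. The gap under TMM was narrow. For CGC it lay between 372 CPM in CNV replicate 3 and 365 CPM in control replicate 3. For TGC it lay between 13.8 CPM in CNV replicate 3 and 13.7 CPM in control replicate 2.

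The most abundant member was tRF-Ala-CGC-023, the 26th of all tsRNAs by mean level. It was at 131, 95.3 and 144 CPM in control replicates 1 to 3, from 758, 1326 and 704 counts. In CNV replicates 1 to 3 it was at 238, 249 and 147 CPM, from 1225, 1252 and 854 counts. The CNV pools all lay above the control pools under both scalings, though CNV replicate 3 exceeded control replicate 3 by far less than the other CNV pools did. The fitted difference was 1.72-fold (log2 0.78, SE 0.25), with an adjusted p of 0.184 in edgeR's quasi-likelihood test. With each library left out in turn it ran from 0.52 without control replicate 2 (adjusted p 0.462) to 0.90 without CNV replicate 3 (adjusted p 0.0706). It was 0.68 without CNV replicate 1 (adjusted p 0.416), 0.59 without CNV replicate 2 (adjusted p 0.594), and 0.69 without any filter on low counts (adjusted p 0.0387). In that unfiltered fit 7.63% of tsRNAs were called.

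The second most abundant, tRF-Ala-CGC-019, was nearly level across the pools. It was at 121, 115 and 120 CPM in control and 130, 120 and 122 CPM in CNV, the 35th of all tsRNAs by mean level (log2 0.06, SE 0.14, and -0.09 under scaling by total counts alone). The third, tRF-Ala-CGC-026, was at 25.2, 24.7 and 25.3 CPM in control and 27.6, 25.1 and 28.5 CPM in CNV (log2 0.11, SE 0.18). The ratio of its counts to those of tRF-Ala-CGC-019 ran only from 0.207 to 0.233 over the 6 libraries. The ratio of tRF-Ala-CGC-023 to tRF-Ala-CGC-019, a pair of fragments named for the same anticodon and picked after their values were seen, was 1.08, 0.828 and 1.19 in control and 1.84, 2.08 and 1.20 in CNV. The levels of these fragments of 1 anticodon therefore did not keep a fixed ratio across the pools. Without tRF-Ala-CGC-023 the summed alanine level was 309 ± 14.6 CPM in control, against 334 ± 15.9 CPM in CNV (SD, n = 3), so this member held most of the difference in the sum.

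**Figure D2:**
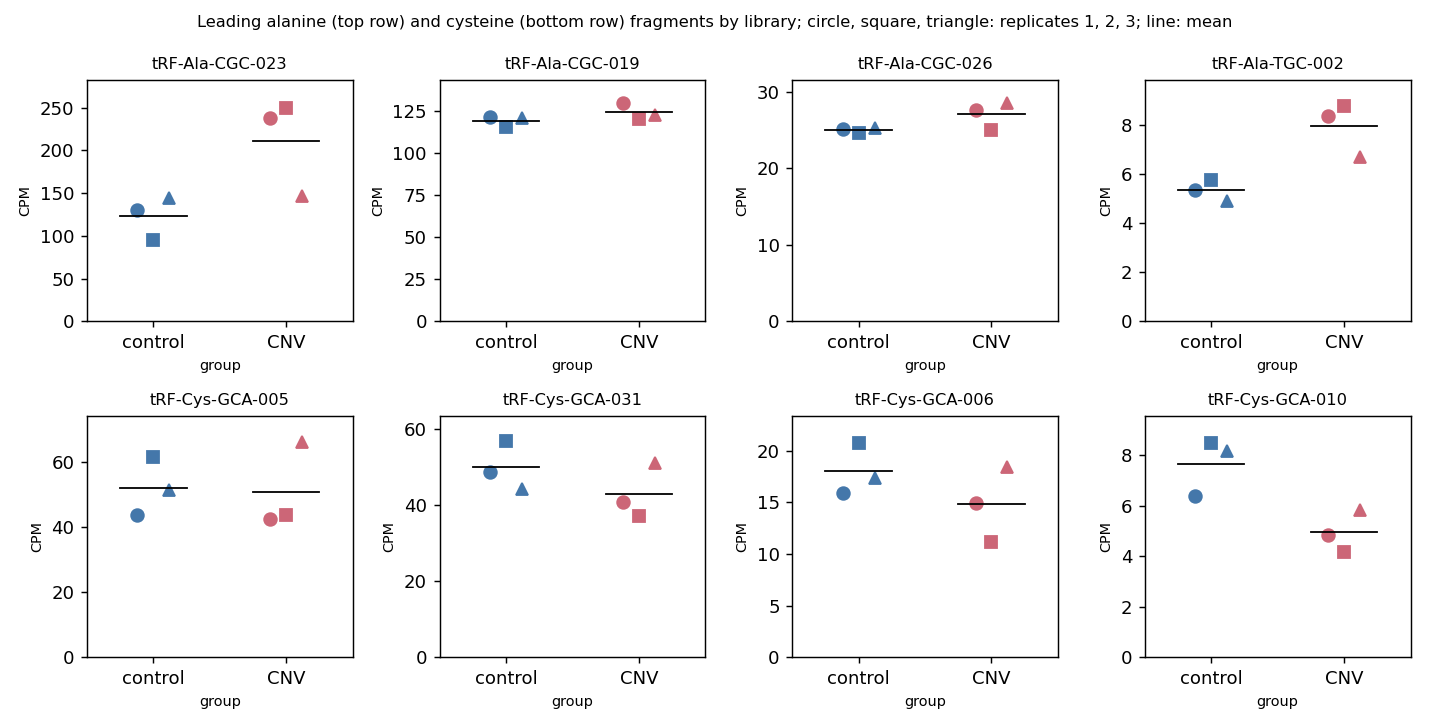
Level in CPM (y axis, from 0) of 4 alanine fragments (top) and 4 cysteine fragments (bottom) in the control and CNV pools (x axis), with symbols for replicates 1 to 3 and lines at group means. CNV replicate 3 (triangle) is the lowest CNV pool for tRF-Ala-CGC-023, at 147 CPM, and the highest CNV pool for the 4 cysteine fragments shown.

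Of the remaining alanine fragments, tRF-Ala-TGC-002 had the next smallest p. It was at 5.35, 5.75 and 4.90 CPM in control and 8.37, 8.76 and 6.71 CPM in CNV, and the groups did not overlap under either scaling. Its fitted difference was 1.47-fold (log2 0.56, SE 0.23, adjusted p 0.254 in edgeR's quasi-likelihood test), from 24 to 80 counts per library. The other TGC fragment, tRF-Ala-TGC-001, was at 6.77 ± 1.20 and 8.96 ± 3.03 CPM (SD, n = 3), which overlapped.

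The largest fitted difference was that of the rare tRF-Ala-CGC-015, at log2 1.08 (SE 0.59, adjusted p 0.389 in edgeR's quasi-likelihood test). It had 14, 19 and 13 counts in control and 34, 27 and 6 in CNV, that is 2.42, 1.37 and 2.65 against 6.62, 5.37 and 1.03 CPM. CNV replicates 1 and 2 were the highest of the 6 pools and CNV replicate 3 the lowest. The log2 value was 0.62 without CNV replicate 1, 0.65 without control replicate 2 and 1.49 without CNV replicate 3. Another low-count fragment of the same anticodon, tRF-Ala-CGC-004, was at 3.23 ± 0.699 and 4.41 ± 0.546 CPM (log2 0.42, SE 0.27).

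The other abundant alanine fragments were close to level. The most abundant AGC fragment, tRF-Ala-AGC-034, was at 19.7, 17.4 and 27.4 CPM in control and 19.5, 20.5 and 22.4 CPM in CNV (log2 -0.04, SE 0.23). For tRF-Ala-CGC-009 the values were 20.2 ± 0.563 and 17.8 ± 2.59 CPM (log2 -0.18, SE 0.20, and -0.37 without CNV replicate 3), and for tRF-Ala-CGC-002 15.8 ± 1.65 and 17.2 ± 3.46 CPM (log2 0.13, SE 0.23). Each of these had overlapping groups. The tested alanine fragments with a negative fold change were tRF-Ala-AGC-034, tRF-Ala-CGC-009, tRF-Ala-AGC-021 (log2 -0.05) and tRF-Ala-AGC-041 (log2 -0.32). The last of them, at 3.04 ± 0.398 and 2.44 ± 0.256 CPM, had groups that did not overlap under TMM and overlapped with total counts.

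In all, the groups did not overlap under TMM for 2 alanine fragments with higher CNV values (of 26, against 9.87% of tsRNAs) and 1 with lower values (against 6.14%). Under scaling by total counts alone there were 2 higher (against 6.36% of tsRNAs) and 0 lower. The alanine fragments that were not tested, tRF-Ala-AGC-009, tRF-Ala-AGC-026 and tRF-Ala-CGC-013, had 61 to 80 counts over the 6 libraries. In that order their means were 2.23, 2.58 and 1.13 CPM in control and 1.57, 1.79 and 2.29 CPM in CNV, with groups that overlapped. Of all 39 members 27 had a mean under 10 CPM, so most of the list rested on few reads. The lowest count of any member in a library was 2, for both tRF-Ala-AGC-029 and tRF-Cys-GCA-023, and no member was at 0 anywhere.

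A pair of cysteine fragments held most of the cysteine reads. The most abundant, tRF-Cys-GCA-005, made up 30.6% (95% Wilson interval 27.5 to 33.8%) of the cysteine counts in control replicate 1 and 37.5% (34.6 to 40.5%) in CNV replicate 3, the extremes of the 6 pools. Its level was 43.6, 61.5 and 51.3 CPM in control and 42.6, 43.6 and 66.2 CPM in CNV (log2 -0.04, SE 0.23). The next, tRF-Cys-GCA-031, was at 48.6, 56.7 and 44.3 CPM in control and 40.9, 37.2 and 50.9 CPM in CNV (log2 -0.22, SE 0.20). Without CNV replicate 3 the log2 values of these fragments were -0.35 and -0.44. For both, CNV replicate 3 was among the highest pools and the groups overlapped. Their counts stood in a ratio of 0.897 to 1.30, which was 1.05 ± 0.134 in control and 1.17 ± 0.129 in CNV (SD, n = 3).

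The cysteine fragment with the smallest p was tRF-Cys-GCA-010, at 6.38, 8.48 and 8.17 CPM in control and 4.86, 4.18 and 5.85 CPM in CNV. It was 1.55-fold lower (log2 -0.63, SE 0.25, adjusted p 0.239 in edgeR's quasi-likelihood test), from 21 to 118 counts per library, and its groups did not overlap under either scaling. The rarer tRF-Cys-GCA-001 also had groups that did not overlap, at 2.93, 3.52 and 3.06 CPM in control and 1.56, 2.79 and 1.89 CPM in CNV (log2 -0.63, SE 0.31, adjusted p 0.341 in the same test). These 2 of the 9 tested cysteine fragments did not overlap under TMM, against 6.14% of tsRNAs. Under scaling by total counts alone there were 3, against 8.33% of tsRNAs, with tRF-Cys-GCA-018 added.

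For tRF-Cys-GCA-018 the level was 4.83, 6.47 and 6.13 CPM in control and 3.70, 3.98 and 5.16 CPM in CNV (log2 -0.45, SE 0.26). The fragments of middle abundance were tRF-Cys-GCA-006 and tRF-Cys-GCA-009. The first was at 15.9, 20.8 and 17.4 CPM in control and 14.98, 11.1 and 18.4 CPM in CNV (log2 -0.28, SE 0.24). The second was at 12.8, 15.7 and 15.7 CPM in control and 9.73, 8.76 and 17.2 CPM in CNV (log2 -0.30, SE 0.29). For both, CNV replicates 1 and 2 lay below every control pool and CNV replicate 3 above at least 2 of them. Without CNV replicate 3 their log2 values were -0.55 and -0.75, and without CNV replicate 2 they were -0.16 and -0.16. That of tRF-Cys-GCA-018 was -0.68 without CNV replicate 3.

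Among the tested cysteine fragments the control pools differed most, relative to their mean, for tRF-Cys-GCA-004, at 2.76, 7.76 and 4.70 CPM in control and 2.92, 6.57 and 6.19 CPM in CNV (log2 -0.02, SE 0.42). The last tested one, tRF-Cys-GCA-032, was at 3.73 ± 0.327 and 3.04 ± 0.920 CPM (SD, n = 3). The cysteine fragment that was not tested, tRF-Cys-GCA-023, went the other way. It had 8, 16 and 2 counts in control and 34, 14 and 8 in CNV, that is 1.38, 1.15 and 0.408 against 6.62, 2.79 and 1.38 CPM, where the lowest CNV pool lay just below the highest control pool. In the fit without a filter on low counts it had an adjusted p of 0.0107 in edgeR's quasi-likelihood test (log2 1.68). The only listed tiRNA of these tRNAs, a class cut in the anticodon loop, was tiRNA-Cys-GCA-001. It had 3 to 40 counts per library, too few to be tested, at 1.61 ± 1.19 CPM in control and 1.56 ± 0.341 CPM in CNV.

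The order of the pools was counted for each tested fragment. Control replicate 2 was the highest of the 6 pools for 7 of the 9 tested cysteine fragments (against 15.8% of tested tsRNAs). The lowest was CNV replicate 1 or 2 for 8 of the 9 (against 32.9% of tsRNAs). Among the CNV pools, replicate 3 was the highest for 6 of the 9 (against 33.6% of tsRNAs). Of the 26 alanine fragments, CNV replicate 3 was the lowest CNV pool for 11 (against 42.1% of tsRNAs) and the highest for 8 (against 33.6%), and control replicate 2 was the lowest of the 6 pools for 8 (against 20.8% of tsRNAs). The median log2 level against the control mean was 0.30, 0.21 and 0.09 for alanine and -0.58, -0.50 and 0.04 for cysteine in CNV replicates 1 to 3. For all tested tsRNAs it was 0.07, 0.15 and 0.04 in the same pools. In control it ran from -0.07 to 0.04 for alanine and from -0.19 to 0.16 for cysteine.

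**Figure D3:**
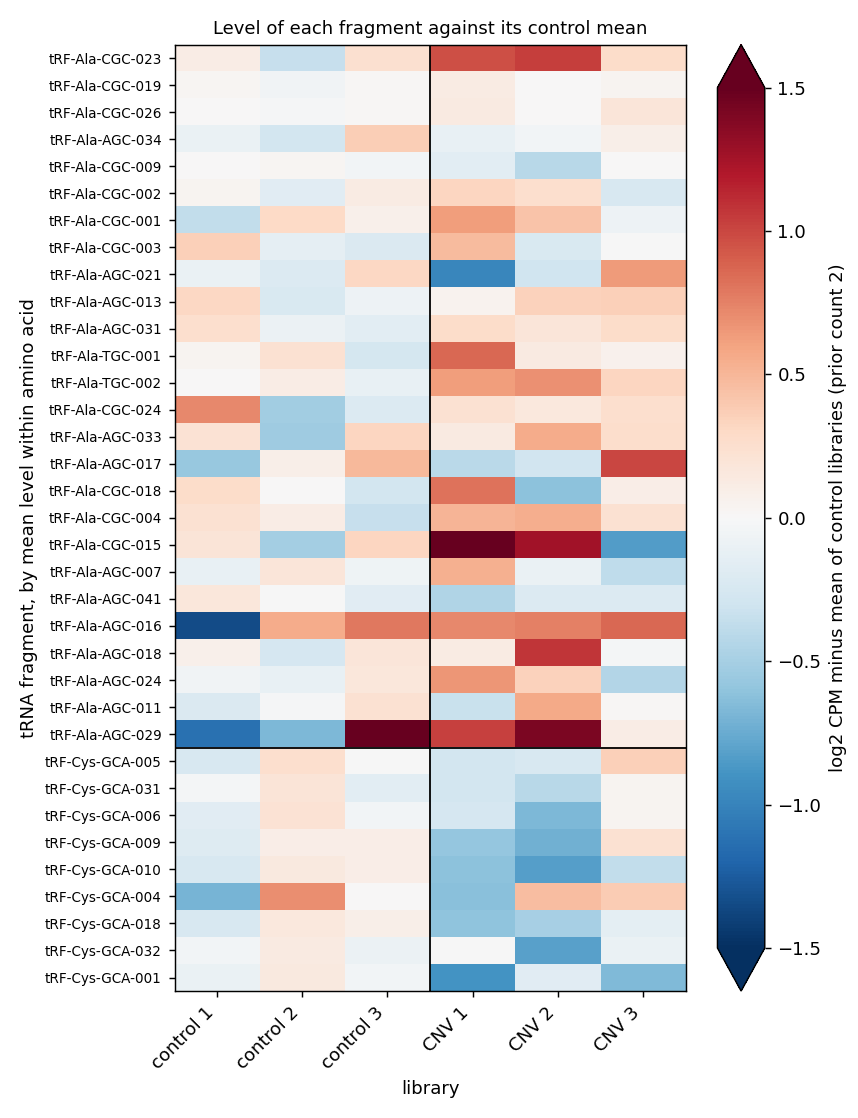
Log2 CPM minus the mean of the control libraries (colour, prior count 2) of each tested fragment (rows, alanine above the line and cysteine below, each by mean level) in the 6 libraries (columns). The cysteine rows are mostly blue in CNV replicates 1 and 2, with medians of -0.58 and -0.50, and near white in CNV replicate 3, with a median of 0.04.

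The number of members at an unadjusted p under 0.05, which was 3 with all pools, ran from 0 without control replicate 2 to 10 without CNV replicate 3. In the latter fit all 39 members were tested, and 4 of 29 alanine fragments were higher, close to the share among all tsRNAs (14.2%), and none lower. Of the 10 cysteine fragments 5 were lower (against 9.30% of tsRNAs) and 1 was higher, the rare tRF-Cys-GCA-023. The median log2 fold change was then -0.52 for cysteine and 0.16 for alanine. That pool was singled out because its cysteine levels lay near those of control, so these counts are a description and support nothing. None of these members had an adjusted p under 0.05 in edgeR's quasi-likelihood test, where the smallest was 0.0706.

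Markers of other cell types moved across the same pools. The leukocyte miRNAs miR-223-3p, miR-142a-5p and miR-142a-3p, summed, were at 281 to 352 CPM in control, at 740 and 700 CPM in CNV replicates 1 and 2 and at 474 CPM in CNV replicate 3. The summed neuron miRNAs miR-124-3p, miR-9-5p and miR-9-3p were at 13852 to 21019 CPM in control and at 10948, 7818 and 12483 CPM in CNV. The summed photoreceptor miRNAs were at 49348 to 75779 CPM in control and at 34396, 24736 and 49473 CPM in CNV, so that control replicate 2, the lowest control pool, was level with CNV replicate 3. The 2 RPE miRNAs summed to 6768 to 6985 CPM in control and to 6499, 5129 and 4522 CPM in CNV replicates 1 to 3. For these CNV replicate 3 lay farthest from control. All 3 leukocyte markers had a positive fold change, and all 3 neuron, all 3 photoreceptor and both RPE markers a negative one, with 0 past the test in each list. The summed red cell, skeletal muscle and endothelial miRNAs overlapped between the groups, at 454 to 2970, 4734 to 11510 and 35246 to 45069 CPM over the 6 pools. The 2 red cell and 3 skeletal muscle markers all had a positive fold change and the 2 endothelial markers a negative one, with 0 past the test. The lowest red cell sum was that of CNV replicate 3. Each of the markers in these lists was detected in every library. The part of these cell types in the levels of the alanine and cysteine fragments was not tested.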

How the data were processed

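Small RNAs from 6 libraries, 3 control and 3 CNV as titled in the labels, were analysed. Inserts were of 14 to 40 nt per the labels' protocols. The deposited tables give raw read counts per miRNA and tsRNA, and a further column that is treated as a score and was not tested, because its deposited values are relative to a different total in each of these classes. Per the submitters' processing notes Bowtie was used. Its version, the build and how reads matching several tRNAs were counted were not given in the sources used here. Fragments of near-identical tRNAs may share reads. No member had counts identical to those of another row.

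Counts were analysed in R 4.3.3. Rows were kept by filterByExpr of edgeR 4.0.16 (minimum count 10, minimum total 15), which left 997. Both classes were scaled together by TMM and fitted with no covariate, and CNV was tested against control by edgeR's quasi-likelihood test, two-sided, with Benjamini-Hochberg adjustment over all 997 at 0.05. Standard errors are on the log2 scale. The procedure was tested on simulated data. Alternatives were DESeq2 1.42.0, limma-voom (limma 3.58.1), other scalings and filters, tsRNA rows alone, a block for the replicate number and each library left out. No p is given for lists or sums, because the members and lists were chosen with earlier results of these data known. Described by rule were, per amino acid, the 6 members of highest mean CPM, the 4 of smallest p, and up to 5 per direction of at least 10 CPM whose groups did not overlap with total counts as the only scaling. Any further member named was picked after seeing its values.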

Additional observations from a re-analysis of the deposited data

How the results depend on the processing

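No member passed under 13 of the 14 alternatives. Without a filter on low counts 2 of the 39 did (tRF-Cys-GCA-023 and tRF-Ala-CGC-023), where 7.63% of tsRNAs were called. Over all small RNAs the number of calls ran from 0 to 88, the latter without that filter, against 3. The median log2 fold change of alanine fragments, 0.24, was 0.10 with total counts as the only scaling, 0.15 with tsRNA rows alone and 0.056 with a minimum mean of 20 CPM, and 0.0325 to 0.252 with each library left out. With that minimum, which left fewer members, 3 of 4 alanine fragments were positive and 2 of 2 cysteine fragments negative. Without a filter on low counts it was 21 of 29 and 9 of 10. The log2 ratio of summed alanine, 0.34, was -0.44 as a share of tsRNA counts, 0.0366 without Gly-CCC in that share and 0.11 without the most abundant member. That of cysteine, -0.17, was -0.88 and -0.42 in the same shares, and -0.34 to -0.05 with each library left out. The cause of these differences was not tested.

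Of 17 named members 11 kept their sign under each alternative that could be fitted for them. Those that did not had log2 fold changes near 0. tRF-Ala-AGC-034 was at 0.0118 with limma-voom, and -0.268 to 0.125 with each library left out. tRF-Ala-CGC-002 was at -0.028 with total counts, and -0.0591 to 0.205 with each library left out. tRF-Ala-CGC-019 was at -0.0897 with total counts, -0.0268 with tsRNA rows alone and -0.0269 with no filter, and -0.0636 to 0.0794 with each library left out. tRF-Ala-CGC-026 was at -0.0327 with total counts, and -0.0104 to 0.126 with each library left out. tRF-Cys-GCA-004 was at 0.0038 with limma-voom, and -0.273 to 0.415 with each library left out. tRF-Cys-GCA-005 was at -0.355 to 0.0638 with each library left out.

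With the replicate number as a block 0 members passed, the medians were 0.23 for alanine and -0.34 for cysteine, and tRF-Cys-GCA-004 was at 0.0517; 36 small RNAs were called in all. The deviations of same-numbered pools correlated at 0.287, 0.0302 and 0.172 over the tested small RNAs. Control replicates 1 and 3 correlated best with the CNV pool of their own number, and control replicate 2 with CNV replicate 3 (0.152). The numbers were not taken as pairs because the labels do not say that a number pairs pools. These correlations do not decide whether it does. Depth limits the members under 10 CPM most, where a library held as few as 2 counts.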
